A study of Mus musculus with 12 samples.

Results

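The comparison described here set c-kit-positive leukaemic mouse cells labelled as overexpressing Dnmt3b against c-kit-positive cells labelled wild type. It used 6 of the 12 arrays of the series, chosen by title: leukaemias 81, 83 and 85 carried the Dnmt3b overexpression label (value Dnmt3b-knockin), and leukaemias 73, 75 and 79 carried the value WT. Every leukaemia, wild type included, was induced by the oncogene MLL-AF9, a fusion of a histone methyltransferase gene with a transcription elongation gene that drives acute myeloid leukaemia. Cells were sorted by flow cytometry for the surface receptor c-kit, and each leukaemia also gave a c-kit-negative array, used below only for side-by-side values. The tissue is unsettled, since bone marrow stands in the titles and spleen in the source field. The labels do not state if the leukaemia numbers are different mice, so p-values measure the spread between these samples. The labels used here do not give the promoter that drives Dnmt3b, the age or the sex of the animals.

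Dnmt3b is a de novo DNA methyltransferase, which adds methyl groups to cytosines in CG pairs. The receptor c-kit marks immature blood cells, and in MLL-AF9 leukaemia the c-kit-positive fraction is known to hold more of the cells that propagate the disease. Dividing leukaemic blasts maintain high ribosome production and mitochondrial metabolism, in part through the transcription factor MYC, and lower both as they mature towards granulocytes.

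The labels were first set against the data. Dnmt3b RNA had log2 levels of 6.66, 6.41 and 6.33 on the wild-type arrays 73, 75 and 79, and of 6.49, 6.38 and 6.33 on the Dnmt3b-labelled arrays 81, 83 and 85. The groups overlapped, the difference was -0.07 (limma adjusted p = 0.910), and an exact permutation test (two-sided, 6 arrays) gave p = 0.6, where 0.1 is the smallest p it allows. The label therefore only names the groups below. Kit, the gene of the sorted receptor, was between 7.88 and 8.34 on the 6 c-kit-positive arrays and between 6.47 and 6.87 on the c-kit-negative arrays of the same leukaemias. Array correlations were 0.967 to 0.984 within and 0.953 to 0.978 between the groups. Leukaemia 81 stood apart in sex-linked genes: Xist, which coats the inactive X chromosome, was 6.30 on its array against 11.06 to 11.66 on the others, and the Y-linked gene Uty was 6.77 against 3.29 to 3.45. Genes past the threshold, and members without overlap in each theme, are therefore also counted without it.

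Among markers of other cells, most but not all late neutrophil genes were higher with the label. Over all 29 measured late neutrophil markers the mean log2 level was 7.62 to 8.07 in wild type and 8.35 to 8.60 with the label. Of the 29, 13 did not overlap between the groups, all higher with the label. The others overlapped, among them Cxcr2 (log2 0.07), Mmp8 (0.17), Retnlg (0.23) and Slpi (-0.59). In all, 26 differences were above 0 and 3 below, with a median of 0.57. Over all genes tested, 7.56% were higher and 9.88% lower without overlap. The means over 14 markers of primary granules of promyelocytes overlapped (9.36 to 10 against 9.42 to 10), while 3 of the 14 were lower and 1 higher without overlap. Among them Cst7, a protease inhibitor, passed the threshold at 8.22, 9.37 and 7.89 against 6.77, 6.53 and 6.47 (log2 -1.91, SE 0.33, adjusted p = 0.0464). Monocyte and macrophage markers, 23 in all, had means of 6.47 to 6.66 against 6.42 to 6.44. B cell markers (16) had means of 5.32 to 5.4 against 5.41 to 5.55. Mast cell, basophil and eosinophil markers (16) had means of 5.04 to 5.4 against 4.88 to 5.02. Their wild-type means were 5.12, 5.04 and 5.4 in leukaemias 73, 75 and 79, so the upper end is leukaemia 79 alone. Among them Cpa3 was highest in leukaemia 79 (6.34, 5.81 and 8.58), while Mcpt8 was lowest there (7.38, 7.94 and 6.61). Erythroid markers (14) and T and NK cell markers (17) overlapped between 5.23 and 5.50. So did those of dendritic cells and of endothelium and stroma between 5.33 and 5.95, and of megakaryocytes between 5.72 and 5.94. The means of stem and progenitor markers overlapped between 6.4 and 7. Of 17 such markers tested, 4 were lower (23.5%) and 2 higher (11.8%) without overlap. One of the lower was Cd34, at 7.46, 7.28 and 9.54 against 7.13, 6.65 and 6.67 (log2 -1.28, limma adjusted p = 0.338). Car1, Gzma and Il7r did not exceed the filter value of log2 4.61 on any of the 6 arrays. These are bulk samples, in which fewer cells of a type and less RNA per cell cannot be told apart. The part of the higher late neutrophil markers in the results below was not tested.

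Of 19152 genes tested, 27 passed a limma adjusted p of 0.05 (0.141%), 11 of them higher (0.0574%) and 16 lower (0.0835%) with the Dnmt3b label. Before adjustment, 1894 genes had p under 0.05, 581 higher and 1313 lower, where 958 in all would be expected by chance. Because so few genes passed, gene groups are also described by how many members had non-overlapping levels, meaning that all 3 arrays of a group lay above all 3 of the other: 9.88% of all tested genes were lower and 7.56% were higher in this sense, and the median difference over all genes was 0.01. With 2 labelled arrays left, without leukaemia 81, these shares were 17.8% and 17.7%. Without leukaemia 81, 123 genes (0.642%) passed, 14 higher and 109 lower, and 25 of the 27 were among them. The count fell to 0 without leukaemia 83, to 1 (Ly6g) without 79 and to 3 (Ly6g, Ltf and Cst7) without 75, while all 27 differences kept their direction in each.

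The higher genes included several outside the late neutrophil markers, such as Slfn2, Gsn, Glipr2 and Lipg, beside the neutrophil genes S100a8 and Lyz2. Slfn2, a Schlafen family gene tied to quiescence of immune cells, was 6.78, 6.48 and 6.76 on the wild-type arrays and 7.46, 7.71 and 7.55 on the labelled arrays. It was 1.87-fold higher (log2 0.90, SE 0.13, adjusted p = 0.0188). Gsn, which encodes the actin-severing protein gelsolin, was 6.90, 6.54 and 6.68 against 7.70, 7.66 and 7.29, a 1.80-fold rise (SE 0.13 on the log2 scale, adjusted p = 0.026). In both genes the lowest labelled array lay above the highest wild-type array. Glipr2, a Golgi-associated protein gene, rose 1.5-fold, from 5.79 to 5.94 in wild type to 6.39 to 6.58 (adjusted p = 0.0484, and 0.0502 with the leukaemia as a replicate block). Lipg, the gene of the secreted endothelial lipase, lay at 5.16, 5.22 and 4.74 against 6.75, 7.07 and 6.21, with no labelled array below log2 6. S100a8, a subunit gene of the neutrophil protein calprotectin, was 11.08, 9.93 and 9.5 against 11.88, 11.96 and 12.07 (adjusted p = 0.0417), with wild-type leukaemia 73 nearest to the labelled arrays. Lyz2, the lysozyme gene of neutrophils and macrophages, was 7.30, 8.18 and 7.74 against 9.31, 9.02 and 8.77. Lyz2 was 1 of the 2 genes that did not pass without leukaemia 81, with a difference of 1.15.

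The 16 lower genes are described here and with their lists below. Smyd2, a lysine methyltransferase of histones and other proteins, was 6.85, 6.94 and 7.10 in wild type and 6.07, 6.16 and 6.10 with the label (log2 -0.86, SE 0.10, adjusted p = 0.0071). Its labelled arrays were close together and below every wild-type array. Spred1, an inhibitor of Ras to MAP kinase signalling, was 5.86, 5.67 and 5.77 against 4.97, 5.18 and 4.83, or 1.71-fold lower (adjusted p = 0.0301). Dpy19l3, which encodes an enzyme that attaches mannose to tryptophan, was 1.75-fold lower (adjusted p = 0.0417), and Cercam, a gene of the collagen galactosyltransferase family, was 1.76-fold lower (adjusted p = 0.0301). Bckdhb, a subunit gene of branched-chain keto acid dehydrogenase, was 6.92, 7.0 and 6.94 against 6.36, 6.34 and 6.54 (1.46-fold lower, adjusted p = 0.0484), and it did not pass without leukaemia 81 or with the replicate block (adjusted p = 0.0502). D5Ertd605e, a gene named only by its expressed sequence, was 1.65-fold lower (adjusted p = 0.0413, and 0.0502 with the replicate block). H2-Q10, a class Ib MHC gene of a family with near-identical copies, was 9.31, 9.64 and 9.38 against 7.52, 7.76 and 7.81, and which family member the probes measured is uncertain. Further probe sets of Mecom, Got2, H2-Q10, Suclg2 and Cercam differed by 0.32, 0.12, 0.12, 0.11 and 0.04. Their wild-type means were 5.4, 5.6, 6.1, 4.2 and 5.2, against 5.7, 10.3, 9.4, 7.8 and 6.9 for the probe sets used. With the mean of all probe sets these 5 differed by 0.74, -0.33, -0.82, -0.36 and -0.39. None passed then (limma adjusted p = 0.0762 to 0.244), so their calls rest on the probe set used. Such a mean cannot tell a weak probe set from a smaller difference.

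**Figure D1:**
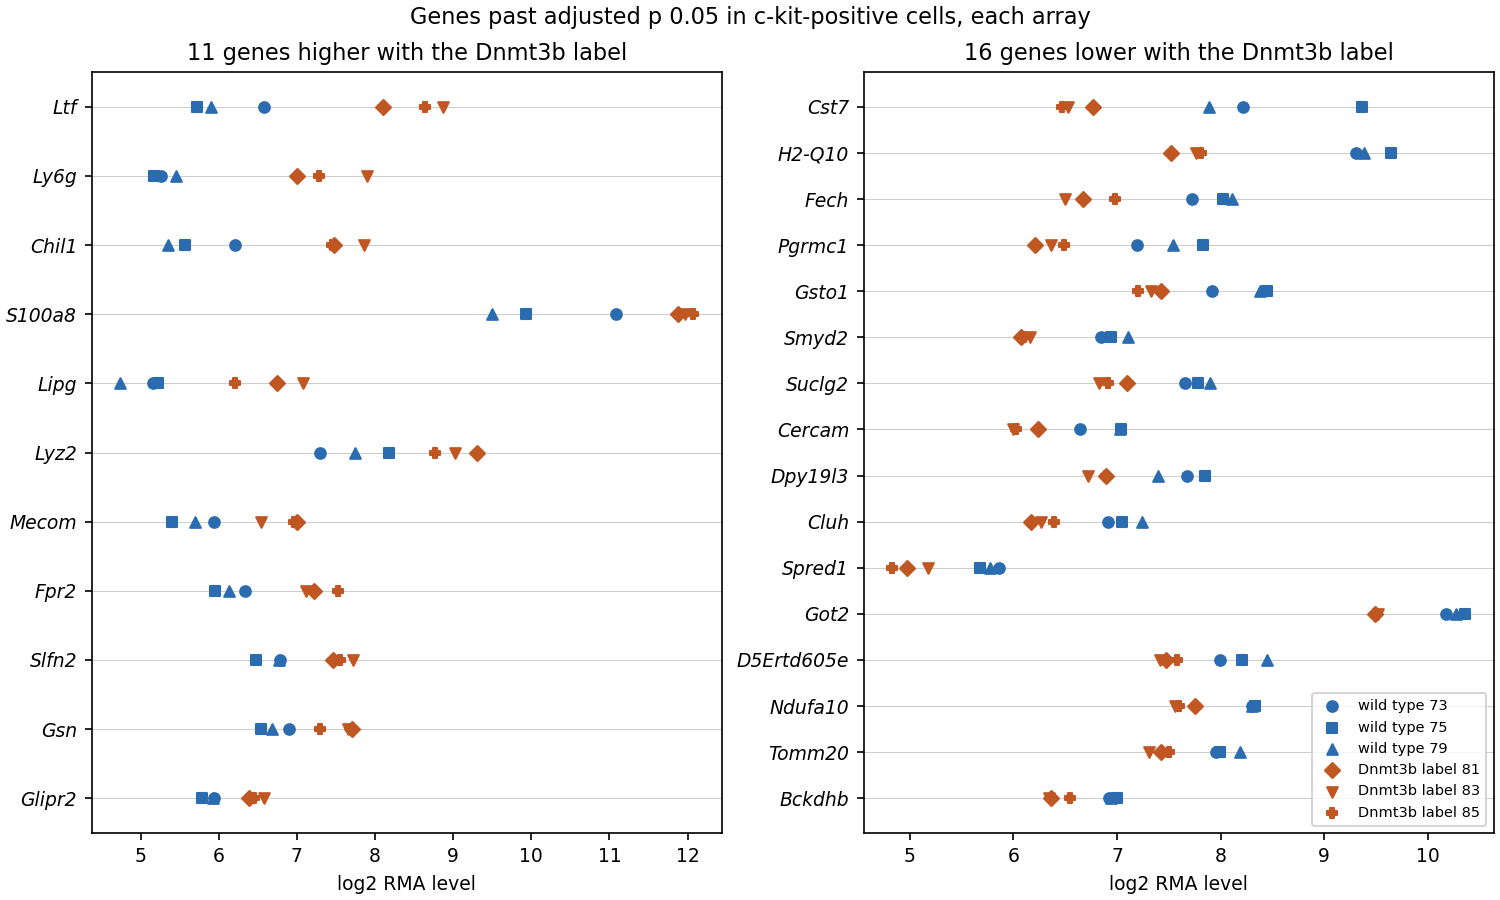
Log2 RMA level (x axis) of the 27 genes past the threshold on each c-kit-positive array, 11 higher genes at left and 16 lower genes at right, with a symbol per leukaemia. In every gene the 3 labelled arrays lie on one side of the 3 wild-type arrays, for example Got2 at 9.49 to 9.52 with the label and 10.18 to 10.36 in wild type.

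Genes of translation had lower values with the label across nearly every class measured. Of 355 tested genes in 9 lists, 328 had a difference below 0, 168 did not overlap and were lower (47.3%), and 2 did not overlap and were higher. Over all genes tested, 9.88% were lower and 7.56% higher in this sense. Without leukaemia 81 the list counts were 226 (63.7%) and 5 (1.41%), against 17.8% and 17.7% over all genes. Only Tomm20 passed the threshold over all genes, so these lists are described by counts and medians without a test of their own. Without leukaemia 81, 16 of the 355 genes passed, all lower, where 123 of all 19152 genes (0.642%) passed, 109 of them lower.

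Ribosome biogenesis factors, which process ribosomal RNA and assemble the subunits in the nucleolus, had the highest share of such genes. Of 75 tested, 48 did not overlap and were lower (64%, and 58 without leukaemia 81), 0 were higher, 74 had a difference below 0, and the median difference was -0.36. Noc4l, a nucleolar factor of the small subunit, was 6.26, 6.18 and 6.32 in wild type and 5.78, 5.78 and 5.53 with the label (log2 -0.56, adjusted p = 0.0837). Dkc1, the dyskerin that converts uridine to pseudouridine in ribosomal RNA, was 7.34, 7.56 and 7.47 against 6.79, 6.48 and 6.12 (log2 -0.99, adjusted p = 0.0887). Neither passed the threshold, although their groups did not overlap; without leukaemia 81 both passed, Dkc1 with an adjusted p of 0.00977. Utp4 and Utp15, of the complex that binds early ribosomal RNA precursors, differed by -0.75 and -0.60 (adjusted p = 0.136 and 0.161). Of 27 subunit and factor genes of RNA polymerases I and III, which transcribe ribosomal and transfer RNA, 8 did not overlap and were lower and the median was -0.16.

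The ribosome itself and the factors that run it had similar values. Of 57 cytosolic ribosomal proteins, 36 did not overlap and were lower, 1 was higher, and the median was -0.33. Rps10, of the small subunit, was 7.32, 7.46 and 7.39 against 6.99, 7.04 and 6.94, with an adjusted p of 0.158, and Rpl32, of the large subunit, differed by -0.71 (adjusted p = 0.184). Ribosomal protein genes have many processed pseudogenes, and probes may not tell these apart from the genes. All 41 translation initiation factor genes had a difference below 0, with a median of -0.33 and 21 lower without overlap. Eif3i, a subunit of the factor that binds the small subunit, was 8.31, 8.38 and 8.63 against 8.01, 7.82 and 7.88 (adjusted p = 0.192). Of 20 elongation and termination factors 9 were lower without overlap, among them Eif5a (log2 -0.38, adjusted p = 0.273), and of 18 cytosolic aminoacyl-tRNA synthetases, which charge transfer RNA, 7 were, among them Kars (log2 -0.57, adjusted p = 0.206). The differences were smaller in the mitochondrial counterparts: the median was -0.16 over 68 mitochondrial ribosomal proteins, 22 of them lower without overlap, and -0.10 over 16 mitochondrial synthetases.

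Protein import and folding genes included the called gene Tomm20, a receptor of the outer membrane through which proteins enter mitochondria. Tomm20 was 7.96, 7.99 and 8.18 in wild type and 7.43, 7.31 and 7.5 with the label (1.55-fold lower, SE 0.10 on the log2 scale, adjusted p = 0.0303). All 3 labelled arrays lay below the wild-type arrays. Tomm40, the channel of the same complex, differed by -0.59 (adjusted p = 0.0887), and C1qbp, a mitochondrial matrix protein, by -1.20 (7.20, 7.75 and 7.96 against 6.56, 6.59 and 6.17, adjusted p = 0.161). Over the 33 chaperone and import genes the median was -0.37 and 14 were lower without overlap. Cluh, an RNA-binding protein that attaches to messages of nuclear-encoded mitochondrial proteins, also fell 1.73-fold, from 6.91, 7.04 and 7.25 to 6.17, 6.27 and 6.39 (adjusted p = 0.0303).

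The highest and the lowest array were the same in these lists, although the order between them was not. Expressed as the median over members of the level minus each gene's own mean over the 6 arrays, ribosome biogenesis was 0.09, 0.18 and 0.35 on wild-type arrays 73, 75 and 79, and -0.09, -0.14 and -0.33 on labelled arrays 81, 83 and 85. Cytosolic ribosomal proteins were 0.10, 0.15 and 0.29 against -0.16, -0.12 and -0.25. The groups did not overlap in either list, with leukaemia 79 the highest and 85 the lowest. Late neutrophil markers were lowest in leukaemia 79 (-0.50) and highest in 85 (0.38), with 83 close to 85 at 0.35. Lists that differ by label in opposite directions have their ends in opposite groups. A link between these lists was not tested. For chaperones and import, leukaemia 81 (0.03) lay close to wild-type leukaemia 73 (0.06).

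**Figure D2:**
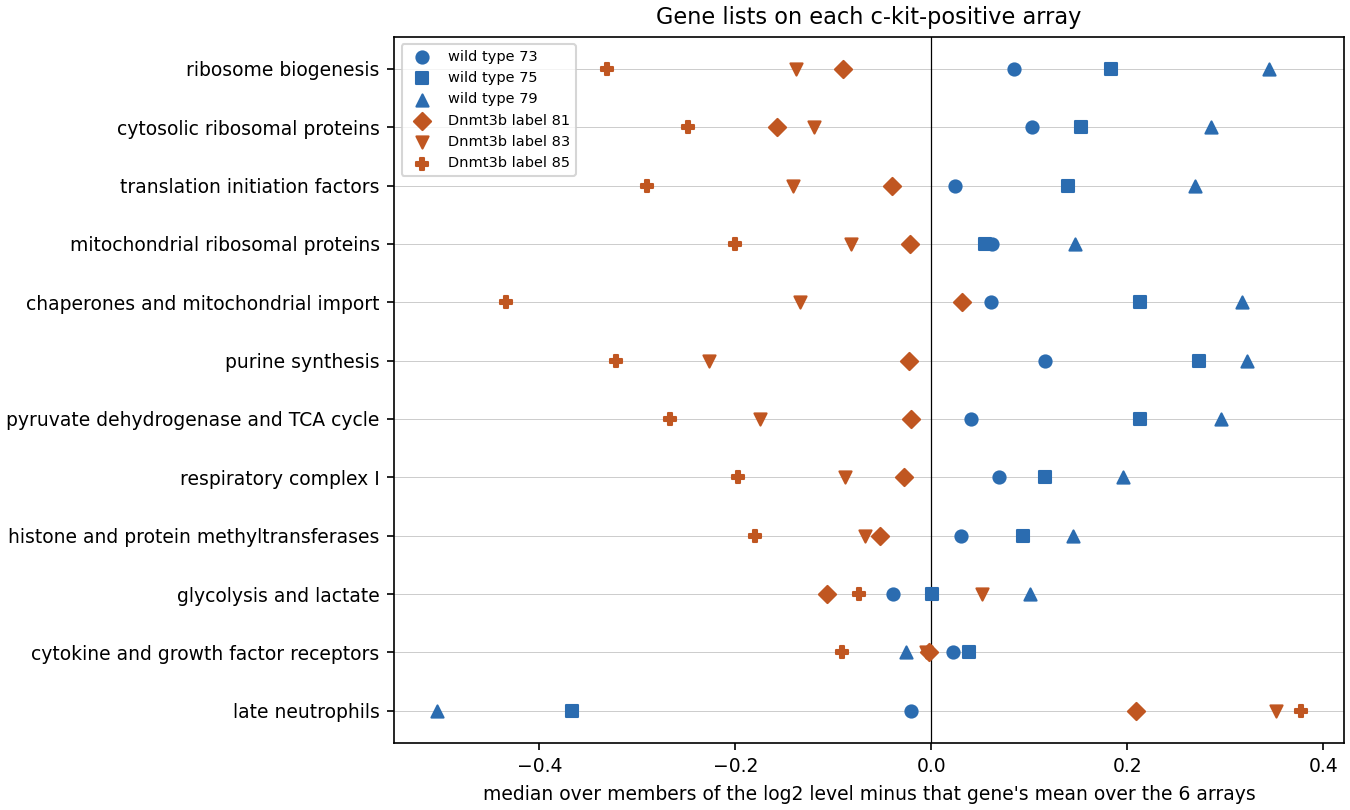
For 12 gene lists (y axis), the median over members of the log2 level minus that gene's mean over the 6 arrays (x axis), with a symbol per leukaemia. Ribosome biogenesis runs from 0.35 in wild-type leukaemia 79 to -0.33 in labelled leukaemia 85, late neutrophil markers run the other way, and glycolysis and cytokine receptors mix the groups.

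The size of a difference also went with the level of a gene. When all tested genes were ranked by their mean level over the 12 arrays and split into 10 equal bins, the median difference was 0.04 in the lowest bin and -0.11 in the highest. The share of genes that did not overlap and were lower went from 2.92% in the lowest bin to 16%, 18.3% and 22.8% in the top 3 bins. Of the 75 ribosome biogenesis genes 40 lay in these top 3 bins, and of the 57 cytosolic ribosomal proteins 39 did. A cyclic loess normalization of the table, chosen after this was seen, gave medians of -0.36 and -0.30 for these lists, against -0.01 over all genes. The part of the level in the counts of these lists was not tested beyond this.

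**Figure D3:**
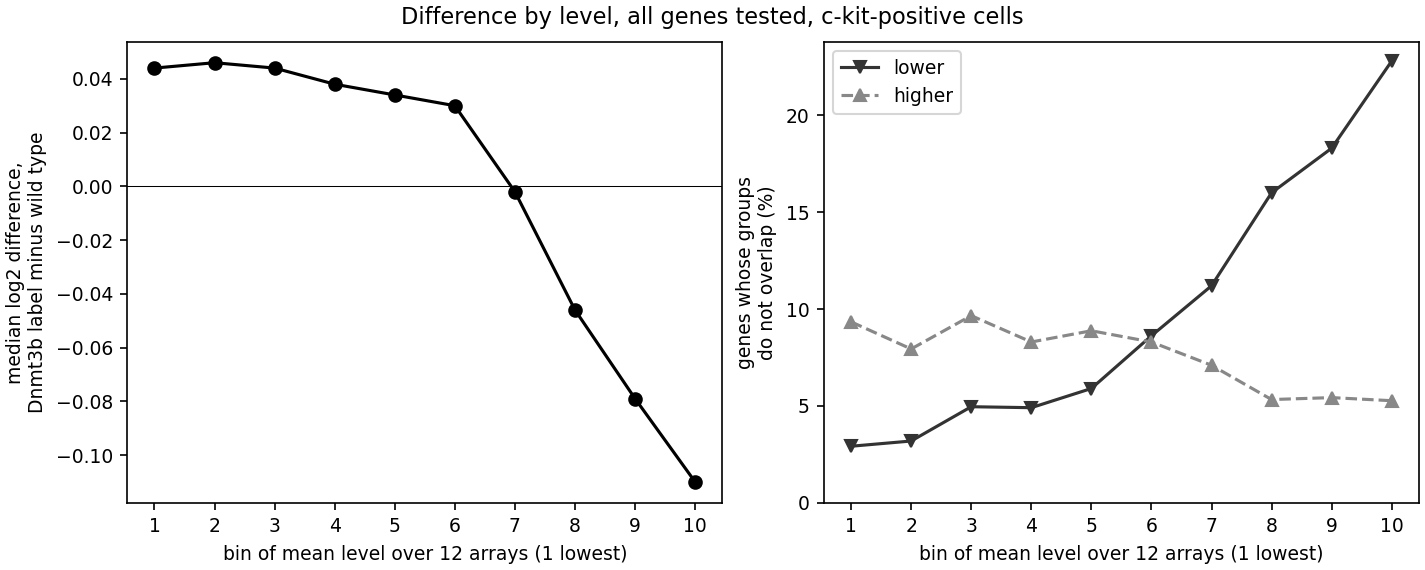
Left, median log2 difference (y axis) in each of 10 bins of mean level (x axis, 1 lowest) over all 19152 genes; right, share of genes in each bin whose groups do not overlap, lower or higher with the label. The lower share climbs from 2.92% to 22.8%, while the higher share goes from 9.34% to 5.27%.

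Promoter sequences were also described, because the label names a methyltransferase of CG pairs and because MYC binds the E-box CACGTG. This motif reads the same on both strands. Methylation and MYC binding were not measured, and a part of either in these differences was not tested. RefSeq promoter windows of GRCm38.p6, from 250 bases before to 50 bases after a start site, were matched by gene identifier for 14845 of the tested genes, which gave 18239 windows. The E-box was in 8.48% of all windows, in 10.1% of windows of genes in the top 3 bins of level, in 21.1% of the 71 windows of ribosome biogenesis genes, and in 11.5% both of the 52 windows of cytosolic ribosomal proteins and of the 26 windows of late neutrophil markers. It was in 2 of 15 windows of the called lower genes and in 0 of 14 windows of the called higher genes. Windows of called lower genes had a median of 24 CG pairs, those of called higher genes 3.5, and those of all tested genes 15. Late neutrophil markers, some of which are among the called higher genes, had a median of 3 (0 to 18). The windows whose groups do not overlap had medians of 22 if lower and 9 if higher, and those of the top 3 bins of level 20. These are counts of letters, with no test.

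The first set shows where the E-box, in capitals, lies in the 2 called lower genes that hold it and in the 3 ribosome biogenesis genes with the smallest p that hold it. Positions count the start site as 0. Cluh (chr11:74649254-74649553, plus strand) has it at -19 and Tomm20 (chr8:126945872-126946171, minus strand) at -126. Utp4 (chr8:106893390-106893689, plus strand) has it at 15, Mybbp1a (chr11:72441077-72441376, plus strand), which encodes a nucleolar MYB-binding protein, at 40, and Wdr43 (chr17:71615965-71616264, plus strand), of the small subunit processome, at 17. Their differences were -0.79, -0.63, -0.75, -0.91 and -0.70, of which those of Cluh and Tomm20 passed the threshold.
Cluh: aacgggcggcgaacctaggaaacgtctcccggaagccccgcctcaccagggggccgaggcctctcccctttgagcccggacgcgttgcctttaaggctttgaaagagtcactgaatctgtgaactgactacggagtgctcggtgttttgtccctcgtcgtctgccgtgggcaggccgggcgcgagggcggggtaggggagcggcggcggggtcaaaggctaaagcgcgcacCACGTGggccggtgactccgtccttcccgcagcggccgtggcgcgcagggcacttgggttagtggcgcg
Tomm20: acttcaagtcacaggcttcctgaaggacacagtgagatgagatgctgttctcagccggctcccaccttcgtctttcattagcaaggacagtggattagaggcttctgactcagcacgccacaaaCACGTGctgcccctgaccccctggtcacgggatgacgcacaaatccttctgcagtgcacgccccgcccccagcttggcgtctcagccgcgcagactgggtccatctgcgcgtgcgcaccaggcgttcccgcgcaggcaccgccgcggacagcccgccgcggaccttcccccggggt
Utp4: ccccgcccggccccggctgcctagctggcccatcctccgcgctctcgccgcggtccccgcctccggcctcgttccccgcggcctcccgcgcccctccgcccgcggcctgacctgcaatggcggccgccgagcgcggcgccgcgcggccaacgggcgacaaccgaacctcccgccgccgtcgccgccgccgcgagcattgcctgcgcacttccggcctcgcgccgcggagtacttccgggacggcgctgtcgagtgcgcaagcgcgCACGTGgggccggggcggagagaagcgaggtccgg
Mybbp1a: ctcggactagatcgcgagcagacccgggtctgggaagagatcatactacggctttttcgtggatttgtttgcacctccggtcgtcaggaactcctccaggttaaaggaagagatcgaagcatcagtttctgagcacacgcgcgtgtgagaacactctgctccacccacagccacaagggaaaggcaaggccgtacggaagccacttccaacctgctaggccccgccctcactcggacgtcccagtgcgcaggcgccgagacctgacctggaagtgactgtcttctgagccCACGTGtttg
Wdr43: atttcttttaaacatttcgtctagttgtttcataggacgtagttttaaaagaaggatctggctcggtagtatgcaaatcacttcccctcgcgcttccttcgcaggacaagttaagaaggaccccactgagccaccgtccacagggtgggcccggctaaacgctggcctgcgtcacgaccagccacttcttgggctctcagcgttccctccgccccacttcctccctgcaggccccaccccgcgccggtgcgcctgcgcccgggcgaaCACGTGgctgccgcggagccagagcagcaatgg

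The second set shows CG pairs, in capitals, in an extreme pair: the called lower gene with the most and the called higher gene with the largest difference. The ranges overlap widely, with 2 to 43 pairs in windows of called lower genes and 1 to 28 in those of called higher genes. Smyd2 (chr1:189922242-189922541, minus strand) has 43 CG pairs and Ltf (chr9:111019042-111019341, plus strand), the lactoferrin gene, has 4. No methylation was measured on these arrays, and levels of Smyd2 were lower and those of Ltf higher with the label.
Smyd2: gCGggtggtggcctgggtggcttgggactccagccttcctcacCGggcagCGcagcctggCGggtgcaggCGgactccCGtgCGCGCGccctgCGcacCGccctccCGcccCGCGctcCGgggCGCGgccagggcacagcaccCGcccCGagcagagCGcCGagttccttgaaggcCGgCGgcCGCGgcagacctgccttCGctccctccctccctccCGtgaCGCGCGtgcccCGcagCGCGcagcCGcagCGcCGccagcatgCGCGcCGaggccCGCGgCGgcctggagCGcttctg
Ltf: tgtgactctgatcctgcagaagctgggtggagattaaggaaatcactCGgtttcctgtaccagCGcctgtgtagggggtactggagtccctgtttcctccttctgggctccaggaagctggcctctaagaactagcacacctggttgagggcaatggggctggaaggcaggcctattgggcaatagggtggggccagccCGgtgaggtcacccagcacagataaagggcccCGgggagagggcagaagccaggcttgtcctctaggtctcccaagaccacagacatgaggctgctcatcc

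Of the 17 metabolic lists, 16 had a median below 0 and the pentose phosphate pathway one above it. Over all genes, the top 3 bins of level had medians of -0.05, -0.08 and -0.11. Glycolysis (-0.07), haem synthesis (-0.07), lipids (-0.05) and cholesterol synthesis (-0.03) were no lower than these bins. The part of the level in the metabolic lists was not tested. Of 340 tested genes in 17 lists, 7 passed the threshold, Lipg higher and Suclg2, Got2, Ndufa10, Fech, Pgrmc1 and Gsto1 lower. Among the 340, 111 did not overlap and were lower (32.6%) and 13 were higher (3.82%), against 9.88% and 7.56% over all genes. Without leukaemia 81 these were 153 (45%) and 22 (6.47%), against 17.8% and 17.7%. Without leukaemia 81, 19 of the 340 passed lower and 1 higher, where 0.642% of all genes passed.

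In the citric acid cycle and the steps that feed it, 26 of 27 genes had a difference below 0, 13 were lower without overlap, and the median was -0.35. Got2, the mitochondrial aspartate aminotransferase, was 10.18, 10.36 and 10.28 in wild type and 9.49, 9.52 and 9.51 with the label (1.70-fold lower, log2 -0.77, SE 0.13, adjusted p = 0.0464). With the leukaemia as a replicate block its adjusted p was 0.0502. The labelled arrays were nearly level with each other and lay below every wild-type array. Suclg2, a subunit of succinyl-CoA ligase, was 7.66, 7.78 and 7.90 against 7.09, 6.82 and 6.91 (adjusted p = 0.0071). Pdha1, of pyruvate dehydrogenase, and Got1, the cytosolic aminotransferase, differed by -0.61 and -0.50 (adjusted p = 0.168 and 0.180). Pdhx, another pyruvate dehydrogenase subunit, was the exception without overlap, at 0.20 (adjusted p = 0.522).

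The respiratory chain had smaller differences of the same sign. Ndufa10, an accessory subunit of complex I, was 8.31, 8.34 and 8.30 against 7.76, 7.56 and 7.60 (1.60-fold lower, adjusted p = 0.0492). It passed in only 4 of the 15 alternatives, and not with the replicate block (adjusted p = 0.0502). Over 32 complex I genes the median was -0.22, with 14 lower and 1 higher without overlap. Complexes III and IV, with 24 genes, had a median of -0.27 and 11 lower, among them Uqcrc1 (log2 -0.52, adjusted p = 0.215). ATP synthase, with 15 genes, had a median of -0.14 and 6 lower, among them its catalytic subunit gene Atp5b (log2 -0.57, adjusted p = 0.192).

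Haem synthesis held 2 of the called genes. Of its 21 tested genes 5 were lower (23.8%) and 1 higher without overlap, and 15 were below 0. Fech, which inserts iron into protoporphyrin, was 7.73, 8.02 and 8.12 in wild type and 6.67, 6.50 and 6.98 with the label, and Pgrmc1, a haem-binding protein that associates with Fech, was 7.19, 7.83 and 7.54 against 6.21, 6.36 and 6.49. In both genes every labelled array lay below every wild-type array. The median of the list was -0.07, and Ppox, the enzyme before Fech in the pathway, lay higher without overlap (log2 0.24, adjusted p = 0.573). The 13 tested erythroid markers had a median difference of 0.01. Of 16 iron-sulfur cluster genes 6 were lower without overlap, among them Glrx5 (log2 -0.56, adjusted p = 0.163) and Hspa9 (log2 -0.99, adjusted p = 0.189).

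Nucleotide and 1-carbon genes had some of the larger values that did not pass. Purine synthesis had the lowest median of the 44 lists, -0.49: all 14 genes were below 0 and 8 did not overlap. Prps2, which makes the ribose precursor of nucleotides, was 7.11, 7.39 and 7.24 against 6.69, 6.47 and 6.77 (log2 -0.60, adjusted p = 0.167). Uck2, the uridine-cytidine kinase, came close to the threshold at 9.48, 9.75 and 9.52 against 8.59, 8.66 and 8.32 (2.08-fold lower, adjusted p = 0.0591). Shmt2, the mitochondrial serine hydroxymethyltransferase, was 8.58, 8.88 and 9.07 against 7.96, 7.82 and 7.27 (log2 -1.16, adjusted p = 0.199); leukaemia 85 lay lowest. Slc7a5, the transporter of large neutral amino acids, was 8.52, 8.72 and 8.49 against 7.34, 7.77 and 7.31 (log2 -1.10, adjusted p = 0.0650). Srm, the spermidine synthase, differed by -0.96 (adjusted p = 0.158). The lists these 4 genes belong to had 4 of 16 (pyrimidines), 7 of 20 (serine and folate), 5 of 24 (amino acids) and 3 of 9 (polyamines) members lower without overlap. Uck2, Shmt2 and Slc7a5 passed without leukaemia 81, with adjusted p of 0.0281, 0.0281 and 0.0458.

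Redox enzymes and fatty acid oxidation had more lower than higher members. Gsto1, a glutathione transferase, was 7.92, 8.45 and 8.38 against 7.42, 7.33 and 7.20 (1.91-fold lower, adjusted p = 0.0304), and Sod1, the cytosolic superoxide dismutase, was 9.71, 10.17 and 10.40 against 9.01, 8.99 and 9.05 without passing (adjusted p = 0.0692). Of the 33 redox genes 11 were lower and 1, Mgst1, higher without overlap. Of 21 fatty acid oxidation genes 17 were below 0, 7 were lower and 0 higher without overlap, and Hadh differed by -0.94 (adjusted p = 0.0762). Of 24 genes of fatty acid synthesis and lipids 5 were lower and 2 higher. Glycolysis and lactate genes had 3 higher and 3 lower of 21 without overlap, 14 below 0 and a median of -0.07: the glucose transporter gene Slc2a3 was 6.68, 6.17 and 6.21 against 6.96, 7.39 and 6.90 (log2 0.73, adjusted p = 0.185), while the lactate transporter gene Slc16a1 differed by -0.55 (adjusted p = 0.253). Cholesterol synthesis, with 18 genes, had a median of -0.03, and none of its members named by p, such as Nsdhl (log2 -0.24, adjusted p = 0.466), was near the threshold. The 5 pentose phosphate genes had a median of 0.20, which was -0.06 without leukaemia 81, and none had groups that did not overlap.

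**Figure D4:**
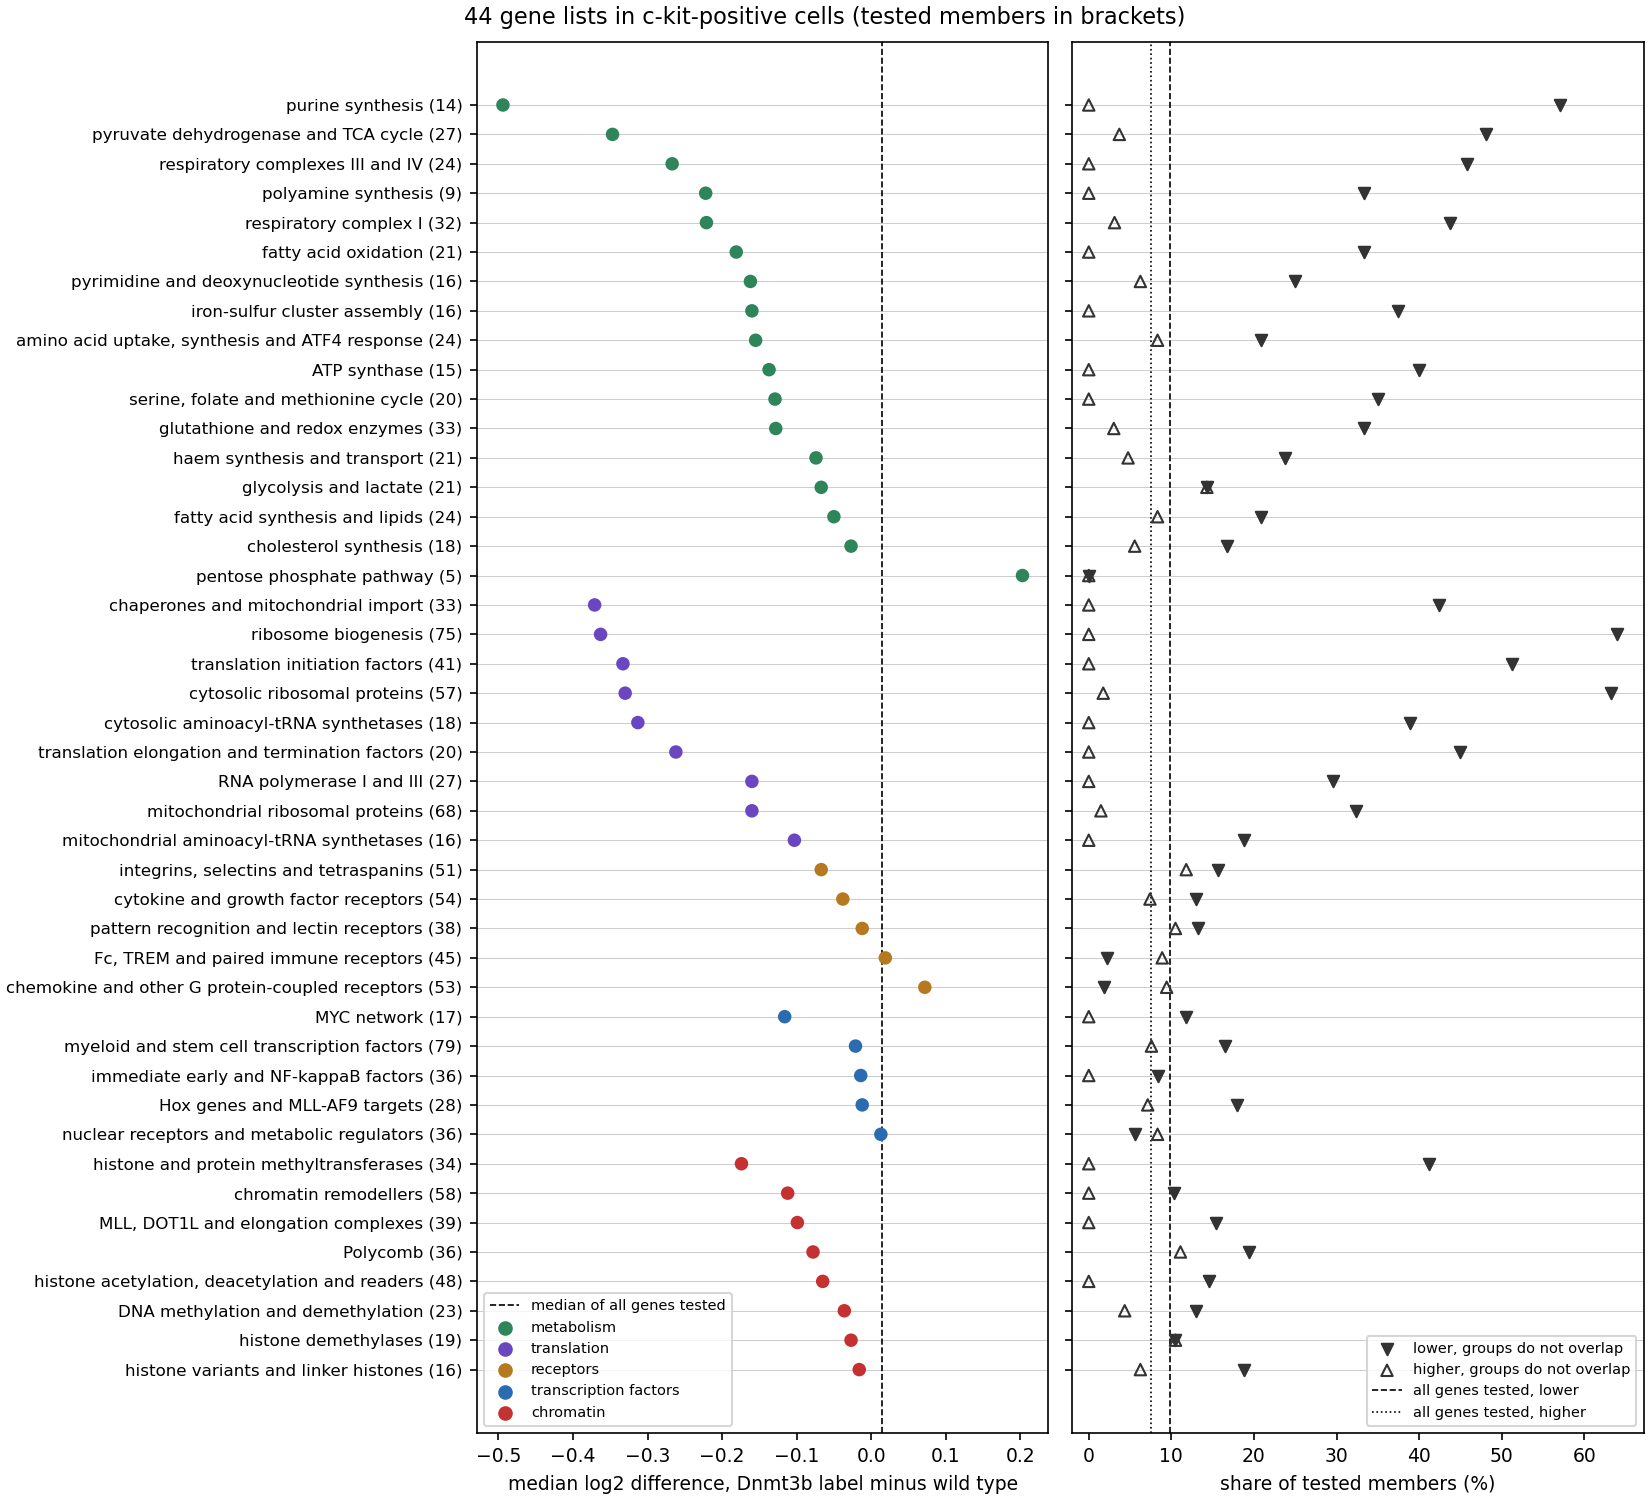
Left, median log2 difference (x axis) of each of 44 gene lists, coloured by theme, with the median of all genes as a dashed line; right, share of tested members whose groups do not overlap, with the shares over all genes, 9.88% lower and 7.56% higher, as lines. Translation lists and mitochondrial and purine lists lie to the lower side, from -0.49 for purine synthesis, while receptor and transcription factor lists lie near the lines.

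Receptors lay near the background. Of 241 tested receptor genes 23 were higher (9.54%) and 22 lower (9.13%) without overlap, the median was 0.00, and only Fpr2 passed, with or without leukaemia 81. Without that leukaemia 42 were higher and 45 lower. Fpr2, a receptor for formylated bacterial peptides, was 6.33, 5.95 and 6.14 against 7.21, 7.12 and 7.53, and it is also among the late neutrophil markers, as is Csf3r. Csf3r, the receptor of granulocyte colony-stimulating factor, was 8.15, 8.06 and 8.02 against 9.11, 8.92 and 8.31 (log2 0.70, adjusted p = 0.206). Flt3, the receptor of lymphoid and myeloid progenitors that is often mutated in leukaemia, was 7.95, 7.88 and 8.63 against 6.02, 6.75 and 7.29 (log2 -1.47, adjusted p = 0.215). Neither passed, with no overlap between the groups in either.

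Other receptor families held members in both directions. Il17ra, an interleukin 17 receptor subunit, was 7.94, 8.08 and 8.12 against 7.43, 7.38 and 7.51 (log2 -0.61, adjusted p = 0.0762), and the interferon gamma receptor gene Ifngr1 differed by -0.57 (adjusted p = 0.215). Of 51 integrins, selectins and tetraspanins 6 were higher and 8 lower without overlap, with a median of -0.07. The members with the smallest p included Itgb2l at 7.47, 6.22 and 6.45 against 8.02, 8.23 and 8.25 (log2 1.45, adjusted p = 0.0629), Cd177 at log2 1.27 (adjusted p = 0.114) and the integrin gene Itgam at 0.98 (adjusted p = 0.163). Itgb2l and Cd177 are also among the late neutrophil markers. Cd93, a surface protein of progenitors, endothelium and monocytes, was 7.57, 7.77 and 8.60 against 6.65, 7.09 and 6.92 (log2 -1.09, adjusted p = 0.167). Ceacam1, an adhesion and inhibitory receptor, differed by 1.01 (adjusted p = 0.219). Of 53 chemokine and other G protein-coupled receptors 5 were higher and 1 lower without overlap; the lower was Adgrg1, a stem cell receptor, whose wild-type values of 5.78, 5.4 and 7.76 spread widely (log2 -1.22, adjusted p = 0.377). Of pattern recognition receptors, Ly86, the partner of a Toll-like receptor relative, differed by -1.46 (adjusted p = 0.376) and Tlr6 by -0.52 (adjusted p = 0.215).

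Transcription factors also lay near the background, with 25 of 196 lower (12.8%) and 11 higher (5.61%) without overlap and a median of -0.02. Without leukaemia 81 these counts were 42 and 20, and Mecom was again the 1 gene that passed. Mecom, the stem cell factor Evi1, alone passed, although not with the mean of its probe sets (log2 0.74, adjusted p = 0.0762). Its arrays were 5.94, 5.4 and 5.69 in wild type and 7.01, 6.55 and 6.97 with the label, with leukaemia 83 the lowest of the labelled. Id2, an inhibitor of E proteins, was 7.87, 7.36 and 6.97 against 8.54, 8.51 and 8.68 (log2 1.18, adjusted p = 0.145), and its partner class was represented by Tcf12, an E protein, at -0.54 (adjusted p = 0.199). Over all listed targets of MLL fusions, 16 differences were below 0 and 12 above. Hoxa9 was 8.35, 8.79 and 8.43 against 8.14, 7.74 and 7.73 (log2 -0.65, adjusted p = 0.325), Hoxa7 differed by -0.48 and Bcl2, the survival gene, by -0.77 (adjusted p = 0.397 and 0.385). Over 28 Hox and MLL-AF9 target genes 5 were lower and 2 higher without overlap, with a median of -0.01. Across the alternatives this median ran from -0.174 to 0.007, and from -0.073 to 0.007 with a leukaemia left out. Members of this list in the top 3 bins of level were below 0, except Eya1 (0.37) and Cpeb2 (0.004). All genes in these bins also had medians below 0, and the part of the level in this list was not tested.

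Myc itself was 8.34, 8.56 and 8.19 in wild type and 7.84, 7.94 and 7.07 with the label. The groups did not overlap, leukaemia 85 was lowest, and the difference of -0.75 did not pass (adjusted p = 0.236). Of the 16 other tested genes of its network of partners and antagonists, 1 (Mlxip) was lower without overlap, 0 were higher, and the median was -0.08. Immediate early genes, which respond within minutes to stimulation and handling, varied widely within the groups: Fosb was 9.05, 9.27 and 8.33 against 7.19, 8.31 and 7.04 (adjusted p = 0.307), and Fos was 8.37, 8.99 and 7.33 against 7.13, 7.46 and 7.04 (adjusted p = 0.501). Over the list of 36 immediate early and NF-kappaB factors the median was -0.01, with 3 lower and 0 higher without overlap. Nuclear receptors and metabolic regulators had 3 higher and 2 lower of 36, among them the dioxin receptor gene Ahr (log2 0.30, adjusted p = 0.405).

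Among the 8 chromatin lists, the methyltransferases had the largest share of lower members without overlap, 41.2%. Of 273 tested, 48 were lower (17.6%) and 8 higher (2.93%) without overlap, 89 and 13 without leukaemia 81, and Smyd2 was the called gene. Over all genes in the top 3 bins of level, 16%, 18.3% and 22.8% were lower without overlap. In these bins lay 49 of 58 remodellers and 15 of 34 methyltransferases. The part of the level in the chromatin lists was not tested. Among 34 histone and protein methyltransferases, 14 were lower, 0 higher, and the median was -0.17. After Smyd2, its members with the smallest p were 3 arginine methyltransferases: Prmt5 was 8.51, 8.72 and 8.73 against 7.87, 7.76 and 7.39 (log2 -0.98, adjusted p = 0.113), Prmt1 was 6.26, 6.52 and 6.34 against 5.64, 5.96 and 5.46 (log2 -0.69, adjusted p = 0.132), and Carm1 differed by -0.59 (adjusted p = 0.163). None of these 3 passed, and Prmt5 did without leukaemia 81 (log2 -1.08, adjusted p = 0.0281).

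DNA methylation genes lay near the background. Of 23 tested, 3 were lower and 1 higher without overlap, with a median of -0.04. Dnmt1, the maintenance enzyme, was 9.0, 9.13 and 9.24 against 9.41, 9.29 and 8.83 (log2 0.05, adjusted p = 0.974, with the sign turning when leukaemia 73, 81 or 83 was left out), and Dnmt3a differed by -0.09 (adjusted p = 0.861). Tet2, which oxidises methylcytosine, was 7.90, 8.55 and 8.16 against 7.64, 7.60 and 7.74 (log2 -0.54, adjusted p = 0.376), while Tet1 differed by 0.37 (adjusted p = 0.370). The groups did not overlap in Tet1 or Tet2.

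The remaining chromatin lists were closer to the background. Of 36 Polycomb genes 7 were lower and 4 higher, among them Mtf2, an accessory protein of the H3K27 methylating complex, at 7.31, 7.04 and 7.29 against 6.82, 6.67 and 6.57 (log2 -0.53, adjusted p = 0.143), and Rnf2, a ubiquitin ligase of histone H2A, at -0.44 (adjusted p = 0.206). Pcgf1, of a variant complex, differed by 0.28 (adjusted p = 0.360). The 39 genes of the MLL, DOT1L and elongation complexes that the fusion engages had 6 lower, 0 higher and a median of -0.10, with Setd1a at -0.28 (adjusted p = 0.514). Kdm5b, a demethylase of H3K4, differed by 0.33 (adjusted p = 0.349). Acetylation genes and remodellers had 7 of 48 and 6 of 58 lower without overlap, 0 higher, and medians of -0.07 and -0.11.

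The c-kit-negative arrays of the same leukaemias gave values to set beside these. There, 12 genes passed the threshold (0.0627%), and 7 of them also passed in c-kit-positive cells, in the same direction: Chil1, Slfn2, Ly6g, Fpr2, H2-Q10, Mecom and Ltf, which is 25.9% of the 27 and 58.3% of the 12. Both fractions come from the same leukaemias, so the second is no independent sample of the label. Among the 27, c-kit-negative differences were -0.03 for Smyd2, 0.00 for Tomm20, -0.48 for Fech, -0.45 for Pgrmc1, -0.29 for Suclg2, -0.64 for Got2 and -0.22 for Spred1. They were 0.75 for S100a8, 0.17 for Glipr2, 0.79 for Slfn2 and -1.74 for H2-Q10. The difference between the fractions itself passed for no gene: limma called 0 interactions (0%), and the smallest adjusted p was 0.735. In all, 427 genes (2.23%) had an unadjusted p under 0.05, fewer than the 958 expected by chance. This fit holds no replicate block, so its interaction p-values ignore the pairing of the fractions by leukaemia. With the block, 0 interactions passed as well. Smyd2 had an unadjusted interaction p of 7.7e-05 and Tomm20 of 0.00059. Both are among the 27, which were chosen by a c-kit-positive difference that is itself part of the interaction. That choice favours small interaction p-values. Ribosome biogenesis and purine synthesis had medians of -0.21 and -0.30 in c-kit-negative cells, against -0.36 and -0.49 in c-kit-positive cells.

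**Figure D5:**
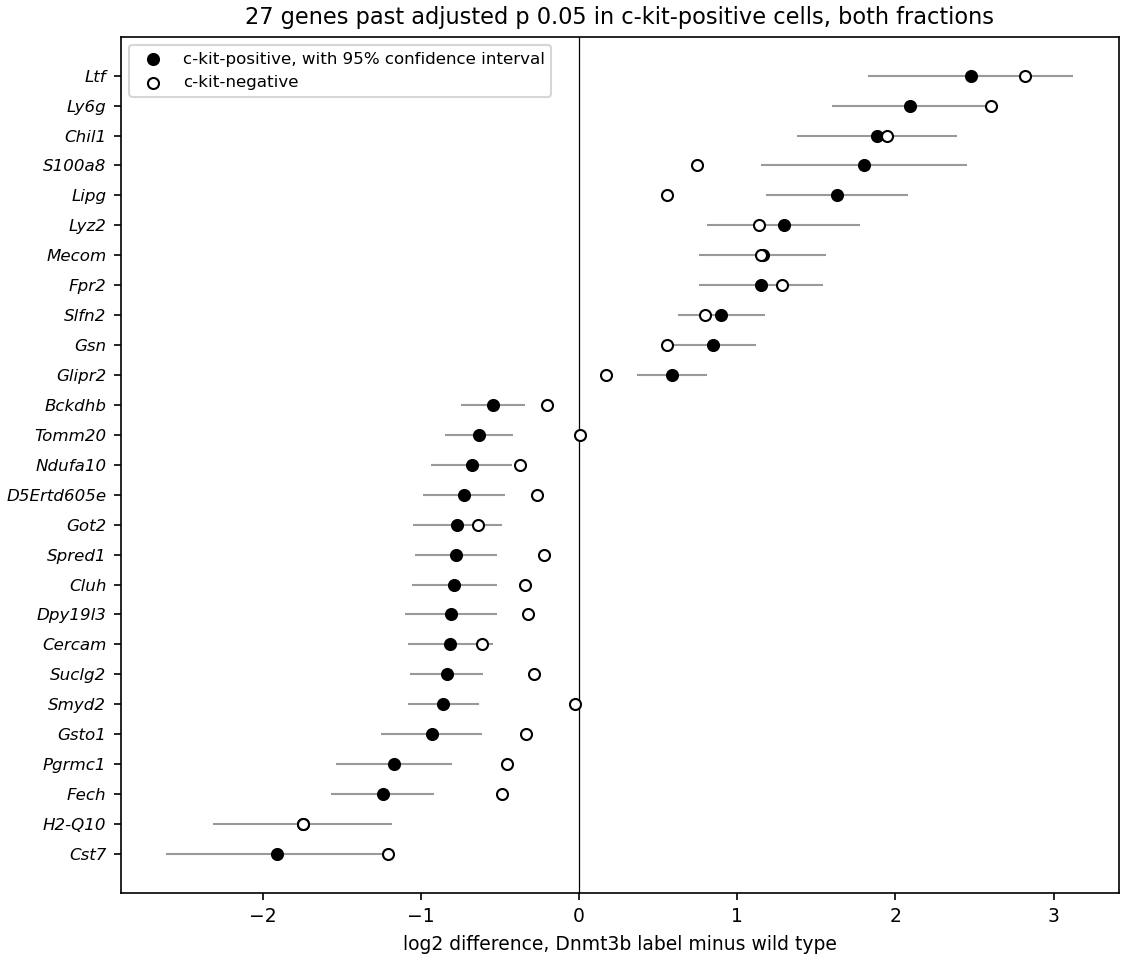
Log2 difference with the Dnmt3b label (x axis) of the 27 genes past the threshold in c-kit-positive cells, filled circles with 95% confidence intervals, and of the same genes in c-kit-negative cells, open circles. Ltf, Ly6g, Chil1, Mecom and H2-Q10 have like values in both fractions. Smyd2 and Tomm20 lie at -0.03 and 0.00 in c-kit-negative cells. The 27 were chosen by their c-kit-positive values, and no interaction passed the threshold.

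Genes next to the threshold that are in no list above were also on both sides. Exosc1, of the RNA exosome, was 8.71, 8.79 and 8.90 against 8.22, 8.05 and 8.06 (adjusted p = 0.0581), Nmd3, an export adaptor of the large ribosomal subunit, differed by -0.62 (adjusted p = 0.0723), and Mif, an inflammatory cytokine gene, by -0.88 (adjusted p = 0.0606). On the higher side, Cybb, the catalytic subunit of the neutrophil oxidase, was 10.04, 10 and 9.30 against 10.76, 11.05 and 10.62 (log2 1.03, adjusted p = 0.103). Ifitm3, an interferon-induced antiviral gene, was 6.22, 6.14 and 6.44 against 7.30, 7.48 and 7.36 (log2 1.12, adjusted p = 0.103). Vsir, an inhibitory immune checkpoint gene, differed by 0.71 (adjusted p = 0.0805) and Ada, adenosine deaminase, by 0.50 (adjusted p = 0.0762). In all 7 the 3 labelled arrays lay on 1 side of the 3 wild-type arrays, and none passed.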

How the data were processed

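The authors deposited log2 values for 41345 probe sets on 12 mouse gene arrays, made with RMA in Affymetrix Expression Console, per the submitters' processing notes; versions and array annotation are not given in the sources used here. RMA normalizes probe intensities between arrays, so a change shared by most genes would not be seen. Values were used as deposited. Of the probe sets 23521 had 1 gene symbol in GEO's platform annotation; the probe set with the highest mean stood for a gene, which left 22180 genes, and 19152 were tested because at least 3 arrays exceeded log2 4.61, the 25th percentile of all values. One limma model (version 3.58.1, R 4.3.3) covered all 12 arrays, with a mean for each of the 4 groups, lmFit and eBayes, two-sided, with Benjamini-Hochberg adjustment over all tested genes and a threshold of 0.05; it was tested on simulated data. Sharing the spread over 4 groups assumes that they vary alike. Folds are 2 to the power of the log2 difference.

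The 2 arrays of a leukaemia share a number, and after group means were removed their arrays correlated at 0.279 to 0.601, so an alternative fit held the leukaemia as a replicate block (consensus correlation 0.353). Other alternatives were normalization, filter, probe sets, the eBayes setting, the 6 arrays alone and leaving out each leukaemia. Of 1745 symbols in 55 lists, 1526 were tested. The arrays compared and the lists were chosen with earlier results of these data known. Named were all genes past the threshold, up to 4 members of a list by smallest p, with the nearest member in the other direction where its groups did not overlap, up to 10 genes per direction next to the threshold, and Dnmt3b, Dnmt1, Dnmt3a, Kit and Myc. Not all called lower genes' promoters are printed, only those that hold the motif or the most CG pairs. Arrays have no depth; their number limits the precision.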

Additional observations from a re-analysis of the deposited data

How the results depend on the processing

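The number of genes past the threshold, 27 (11 higher, 16 lower), depended on the spread estimate and on single leukaemias. It was 64 (51 lower) with the 6 arrays alone, 17 (7 higher, 10 lower) with the mean of all probe sets, and 19 with 10 lower under eBayes with trend and robust; median centring, quantile and cyclic loess normalization (the last added after the data were seen), and both filters gave 21 to 28. With the leukaemia as a replicate block 23 genes passed, 22 of them among the 27; for c-kit-negative cells the block gave 12 and for the interaction 0. Leaving out each leukaemia gave 0 to 123 genes, 0 to 14 higher and 0 to 109 lower. For c-kit-negative cells the count of 12 became 1 with its 6 arrays alone and 3 to 83 with a leukaemia left out, and the interaction count was 0 to 1, the single call coming without leukaemia 85. The causes were not tested. Dnmt3b differed by -0.139 to 0.027 with a leukaemia left out, turning positive without 73, Dnmt1 by -0.066 to 0.22, and Rpia, of the pentose phosphate pathway, by -0.06 to 0.368 (0.21 with all arrays). None of the 27 changed sign in any of the 15 alternatives. The 3 arrays per group limit what could pass.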
